A study of Mus musculus with 9 samples.

Results

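Oxidative phosphorylation runs on 5 protein complexes of the inner mitochondrial membrane, and the nuclear genes that encode their subunits are described here across sorted keratinocytes of mouse back skin. The genes were the rows of the deposited table whose Ensembl identifier maps to a protein-coding symbol chosen by its letters. The symbol begins with Nduf plus a, b, c, s or v and a digit, or with Uqcr, Cox4 to Cox8 or Atp5. Sdha, Sdhb, Sdhc, Sdhd and Cyc1 were taken as well. Nduf symbols of another form, such as the Ndufaf assembly factors, were left out. The rule found 86 of 55357 rows, with 35 rows for complex I, 4 for complex II, 9 for complex III, 20 for complex IV and 18 for complex V. They carry 85 symbols, since Atp5o has a second identifier that was listed at 0 in every library. Ndufa4 and its paralogue Ndufa4l2 were counted with complex IV, where the protein of Ndufa4 is now placed. Atp5s, which the rule also takes in, is a coupling factor and not a stoichiometric subunit.

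The series holds 9 poly(A) RNA-seq libraries, 3 from each of 3 populations. All mice were C57BL/6 of postnatal day 60 and carried TNC-CREER and a tdTomato reporter. Tenascin-C control of the recombinase means that the reporter marks cells that expressed that gene when tamoxifen was given, at 100 µg per g body weight on days 51 and 52. The Touchdome gate took cells positive for the reporter and SCA1 as well as for EPCAM and integrin α6, that is keratinocytes of the touch dome, an epidermal patch where Merkel cells meet sensory nerves. HF cells (hair follicle) shared EPCAM and integrin α6 but lacked SCA1 and the reporter. IFE cells (interfollicular epidermis) had EPCAM, integrin α6 and SCA1 and lacked the reporter. The controls carried the same alleles and tamoxifen as the Touchdome cells, since the gates alone separate the groups. Whether a group's libraries are separate animals is not stated, so its p-values rest on a spread between libraries that may be technical in part.

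Total expected counts ran from 9295059 in HF replicate 2 to 28249763 in IFE replicate 3. IFE replicate 2 stood apart, with a chi-square per degree of freedom of 64.4 and 69.2 against the other IFE libraries, where every other pair within a group lay between 15.7 and 25.1. Lhx2, a hair follicle transcription factor, had 17.7 to 66.8 TPM in Touchdome, 439 to 499.9 TPM in HF and 3.85 to 5.05 TPM in IFE libraries. Lhx2 was 1 of 5 hair follicle markers, whose sum separated the groups less. That sum was 6752 to 7970 TPM in Touchdome, 11495 to 13070 TPM in HF and 7886 to 10521 TPM in IFE libraries. Between Touchdome and IFE, 4 of these markers had a log2 fold change above 0 and 1 below. The 5 basal keratinocyte markers summed to 27968 to 31424 TPM in Touchdome, 15338 to 16420 TPM in HF and 32212 to 36740.2 TPM in IFE libraries. Merkel cell markers were scarce, with Atoh1 and Sox2 listed at 0 in all libraries and a highest Krt8 value of 6.55 TPM, in Touchdome replicate 1. The HF libraries also held more sebocyte marker RNA, with 5 summed markers at 99.4 to 206 TPM in Touchdome, 603 to 1253 TPM in HF and 80.4 to 136 TPM in IFE libraries.

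Complexes I and II pass electrons from NADH and succinate to ubiquinone, complex III hands them to cytochrome c, and complex IV gives them to oxygen. The proton gradient that complexes I, III and IV build drives ATP synthase, complex V. A handful of subunits come from mitochondrial DNA and the rest, described here, from the nucleus. Epidermal keratinocytes are known as strongly glycolytic cells that nevertheless keep an active respiratory chain.

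Of the 86 rows, 79 had enough counts to be tested, and these were abundant. Levels that compare genes are in TPM (transcript abundance scaled by length to a fixed total per library), as the authors deposited them. The median of the mean TPM over the 9 libraries was 133 for the 79 subunit genes and 16.4 for all 15046 genes tested. The highest mean per complex was 237 TPM for Ndufa6 in complex I, 129 TPM for Sdha in complex II and 372 TPM for Uqcrh in complex III. In complex IV it was 803 TPM for Ndufa4l2, and in complex V 1287 TPM for Atp5b, the catalytic β subunit. At the other end stood Cox6b2 with a mean of 14.2 TPM and Atp5s with 18.1 TPM. The median standard deviation of log2 CPM over the 9 libraries was 0.22 for the subunit genes and 0.32 for all genes tested. All genes tested are less abundant and were not matched by level, so the smaller spread cannot be read as a trait of the subunit genes. Within complexes it ran from 0.20 in complex I to 0.27 in complex IV.

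**Figure D1:**
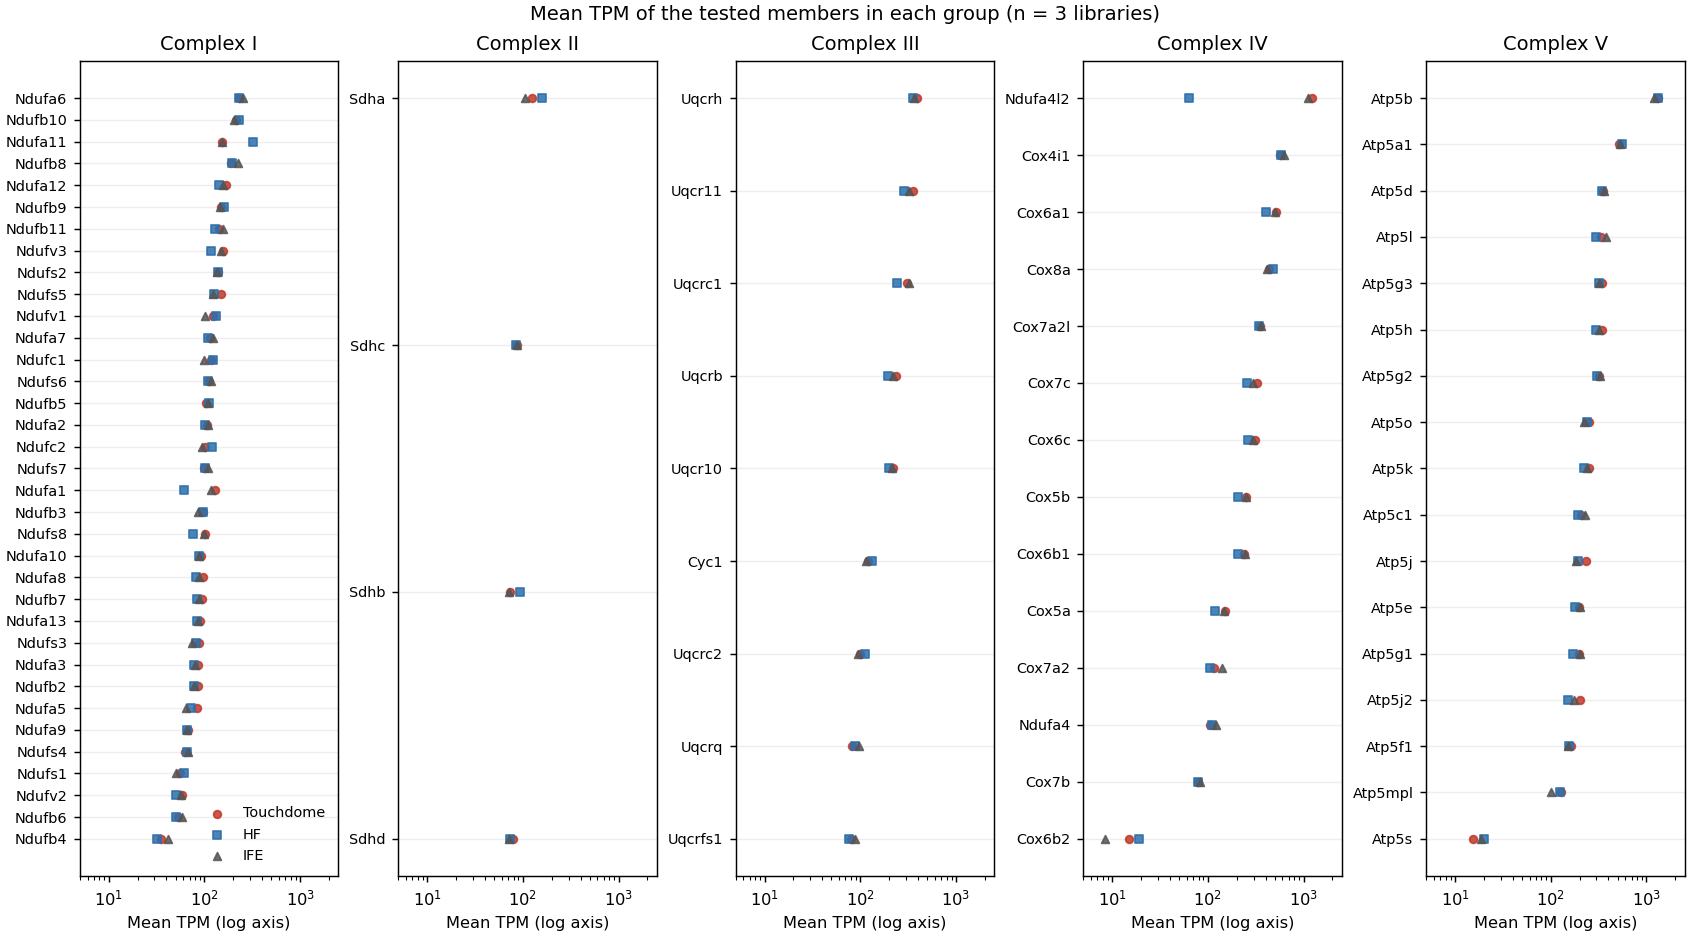
Mean TPM (log axis) of each of the 79 tested subunit genes, by complex, in Touchdome, HF and IFE cells (n = 3 libraries each). The 3 symbols of a gene mostly lie on top of each other, and the wide gaps belong to Ndufa4l2, Ndufa1 and Ndufa11, where HF stands apart from the other groups, and to Cox6b2, where IFE is lowest (14.98 TPM in Touchdome, 19.3 TPM in HF and 8.33 TPM in IFE).

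Together the 86 rows took 1.58% to 1.68% of all TPM in Touchdome, 1.40% to 1.45% in HF and 1.45% to 1.71% in IFE libraries. Their sums were 16274 ± 498 TPM in Touchdome, 14313 ± 284 TPM in HF and 15773 ± 1313 TPM in IFE (SD, n = 3 each). Without Ndufa4l2 the sums were 14609 to 15422 TPM in Touchdome, 13923 to 14475 TPM in HF and 13325 to 15758 TPM in IFE libraries. The HF range thus lay below that of Touchdome and inside that of IFE once this single gene was left out. Complex I summed to 3934 ± 138 TPM in Touchdome, 3895 ± 135 TPM in HF and 3844 ± 402 TPM in IFE, which differ by less than the spread between replicates. In bulk RNA, fewer cells with a transcript and less of it per cell cannot be told apart.

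**Figure D2:**
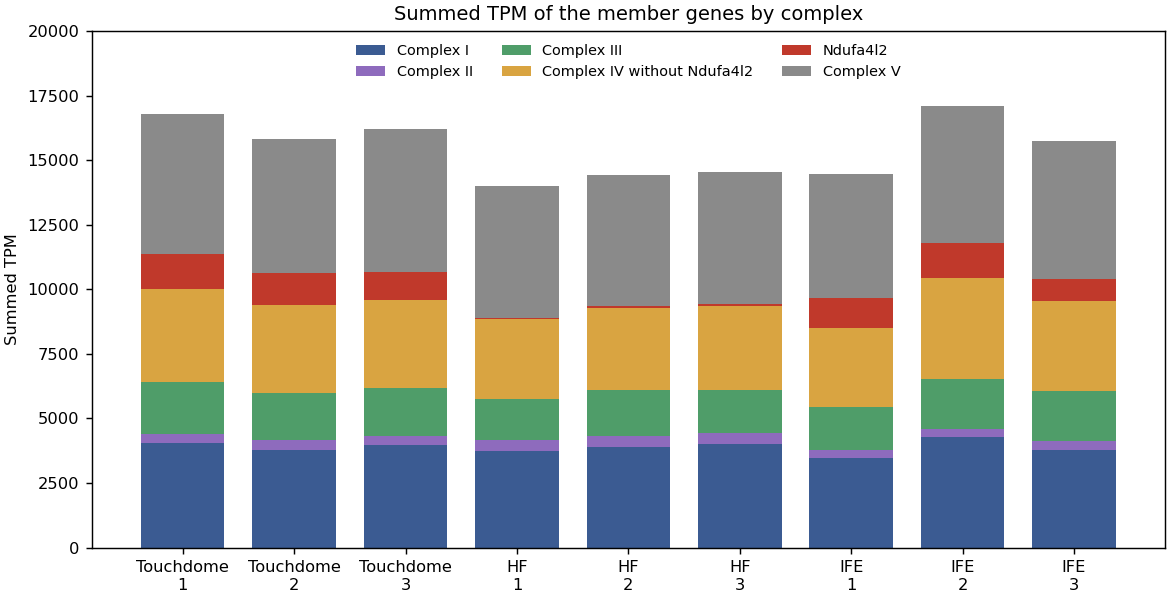
Summed TPM of the subunit genes in each of the 9 libraries, stacked by complex, with Ndufa4l2 drawn apart from the rest of complex IV. The Ndufa4l2 segment stands out in the Touchdome and IFE bars and is a sliver in the HF bars, while the other segments have similar heights.

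No subunit gene passed the test between Touchdome and IFE cells. In Touchdome over IFE, 0 of the 79 genes tested passed as higher and 0 as lower, beside 1.22% of all genes tested called higher and 0.0798% lower (edgeR quasi-likelihood test, Benjamini-Hochberg adjusted p under 0.05). The smallest adjusted p was 0.396, for Uqcrc1. At an unadjusted p under 0.05 edgeR gave 0 higher and 3 lower, and DESeq2 and limma on TPM called 0 in either direction. These tests did not pair the libraries, and edgeR with a block for the replicate number also called 0. The log2 fold changes lay between -0.45 for Ndufb4 and 0.45 for Cox6b2, and 66 were below 0 and 13 above. Their median was -0.09, beside 0.005 for all genes tested, and the median standard error of 1 gene was 0.15. Without IFE replicate 1 the median was -0.22. Without IFE replicate 2 it was 0.008, the same as for all genes tested in that fit. No other fit without 1 library turned its sign.

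HF cells differed from IFE cells at 19 subunit genes, of which 18 were lower and 1 was higher in HF. That is 22.8% of the 79 genes called lower, beside 16% of all genes tested, and 1.27% called higher, beside 17.1% of all genes tested. The lower group held 8 of 14 complex IV genes, 5 of 35 complex I genes, 3 of 17 complex V genes and 2 of 9 complex III genes, and 0 of 4 complex II genes. For complex II, 1 gene was lower at an unadjusted p under 0.05 (Sdhc), and DESeq2 and limma on TPM called 0. Apart from Ndufa4l2, Ndufa1 and Ndufa11, the 16 called genes were lower by 1.28 to 1.59 times. On CPM values the HF and IFE libraries overlapped for 3 of the 19 genes, Cox4i1, Cox7a2 and Ndufb11, and on TPM values they overlapped for 8. The share of overlap over all genes was not computed. Genes picked by p-value on the same libraries mostly lack overlap, so these counts add nothing to the calls.

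The median log2 fold change in HF over IFE was -0.31 over the 79 genes and 0.004 over all genes tested, with 69 genes below 0 and 10 above. By complex the median was -0.24 in complex I, -0.04 in complex II, -0.37 in complex III, -0.40 in complex IV and -0.29 in complex V. The number of calls was sensitive to single libraries. Without IFE replicate 2 it was 9 lower (11.4%, beside 14.7% of all genes tested in that fit), and without HF replicate 1 it was 7 (8.86%, beside 12.2%). Without IFE replicate 1 it was 39 (49.4%, beside 14.6%), and without HF replicate 2 it was 11 (13.9%, beside 12.6%). The share called lower was thus above that of all genes with all libraries, and below it without IFE replicate 2 or without HF replicate 1. The scale mattered as well, since the median of all genes moved to 0.19 on the log2(TPM + 1) scale, on which limma called 3 subunit genes higher (3.8%, beside 19.9% of all genes tested) and 4 lower (5.06%, beside 8.04%) in HF. Relative to all genes, the subunit median was -0.32 in the edgeR test and -0.27 on the TPM scale.

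Touchdome cells differed from HF cells at 8 subunit genes, of which 7 were higher in Touchdome (Ndufa4l2, Ndufa1, Ndufs8, Uqcrc1, Cox5a, Cox6a1 and Cox7c) and 1 was lower (Ndufa11). These were 8.86% called higher and 1.27% called lower of 79 genes, beside 11.8% and 12.8% of all genes tested. The median log2 fold change was 0.17, beside -0.004 for all genes tested, with 63 genes above 0 and 16 below. Apart from Ndufa4l2, Ndufa1 and Ndufa11, the 5 called genes were higher by 1.31 to 1.44 times. The libraries of the 2 groups overlapped for 0 of the 8 genes, which adds nothing to calls made on the same libraries. All 7 genes are also among the 18 that were lower in HF than in IFE, and both comparisons use the same HF libraries. The count of higher genes was 2 without Touchdome replicate 1 and 2 without HF replicate 2, and was 3 without HF replicate 1 and 4 without each of Touchdome replicate 3, HF replicate 3 and IFE replicate 3. In each of the 9 fits without 1 library the share called higher was below that of all genes tested.

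**Figure D3:**
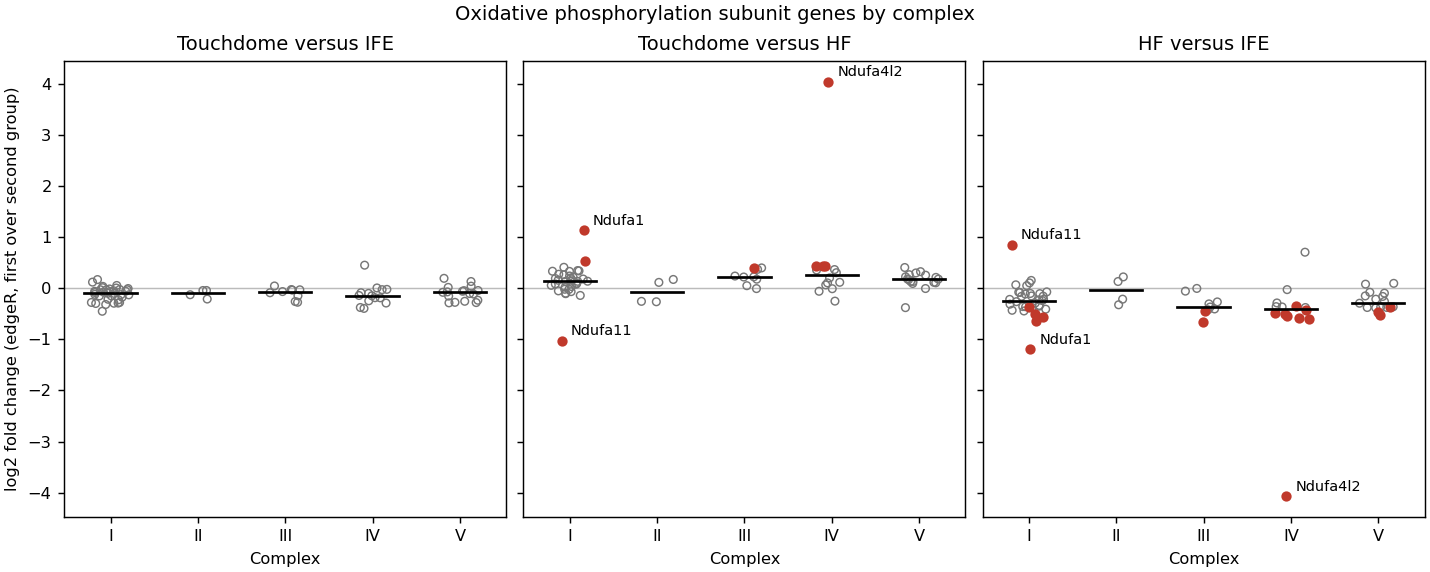
Log2 fold change (edgeR) of each tested subunit gene, by complex, in Touchdome over IFE, Touchdome over HF and HF over IFE. Filled points passed an adjusted p of 0.05 and bars are medians. No point is filled in the Touchdome over IFE panel, and Ndufa4l2, near 4 in Touchdome over HF and near -4 in HF over IFE, lies far outside the range of the rest.

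Complex I, the NADH dehydrogenase, held the next largest differences after Ndufa4l2, and in opposite directions. Ndufa1 encodes a small accessory subunit of the membrane arm that assembly of the complex requires. It had 128, 128 and 127 TPM in the Touchdome libraries, 52.2, 60.0 and 71.9 TPM in the HF libraries and 98.8, 108 and 146 TPM in the IFE libraries. All HF libraries lay below all others. Ndufa1 gave a log2 fold change of 1.14 ± 0.23 (SE) in Touchdome over HF (adjusted p = 0.00261, edgeR) and -1.20 ± 0.23 in HF over IFE (adjusted p = 0.0012).

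Ndufa11 encodes another accessory subunit of the membrane arm and was the single subunit gene called higher in HF. It had 151, 147 and 159 TPM in the Touchdome libraries, 299.7, 304 and 364 TPM in the HF libraries and 119.97, 182 and 155 TPM in the IFE libraries. The HF libraries all exceeded the others without overlap. The log2 fold change was -1.03 ± 0.19 (SE) in Touchdome over HF (adjusted p = 0.00146, edgeR) and 0.85 ± 0.19 in HF over IFE (adjusted p = 0.00349). Ndufa11 overlaps Vmac on the opposite strand, and the strand setting of the counting is not given in the sources used here. Vmac moved the same way, with 18.9, 14.8 and 18.8 TPM in Touchdome, 31.3, 39.6 and 42.3 TPM in HF and 13.2, 13.4 and 11.3 TPM in IFE libraries. Its log2 fold change was -1.25 in Touchdome over HF (adjusted p = 5.07e-05, edgeR) and 1.35 in HF over IFE (adjusted p = 1.63e-05). Without strand, reads from the stretch that the 2 genes share cannot be told apart by direction. The part of Vmac in the Ndufa11 result was not tested.

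Among the core complex I genes, Ndufs8, whose protein carries iron-sulphur clusters, had 109, 97.3 and 96.5 TPM in Touchdome, 77.6, 69.5 and 79.0 TPM in HF and 92.5, 108 and 98.2 TPM in IFE libraries. The HF libraries lay below all others. The Ndufs8 difference was 0.53 ± 0.14 (SE) on the log2 scale in Touchdome over HF (adjusted p = 0.0162, edgeR) and -0.65 ± 0.14 in HF over IFE (adjusted p = 0.00332). The Touchdome over HF call was lost without Touchdome replicate 1 (adjusted p = 0.0737, edgeR) and without HF replicate 2 (adjusted p = 0.063). Ndufv3, Ndufb11 and Ndufb8, which encode accessory subunits, were lower in HF than in IFE as well, by 0.56, 0.51 and 0.36 on the log2 scale (adjusted p = 0.0264, 0.0359 and 0.0484, edgeR). Their calls were lost without IFE replicate 2, and among other settings without HF replicate 1. Other core genes showed no call, such as Ndufv1, which binds NADH, with 115 to 128 TPM in Touchdome, 128 to 136 TPM in HF and 84.7 to 111 TPM in IFE libraries. On the TPM scale Ndufv1 was among the 3 genes that limma called higher in HF than in IFE.

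**Figure D4:**
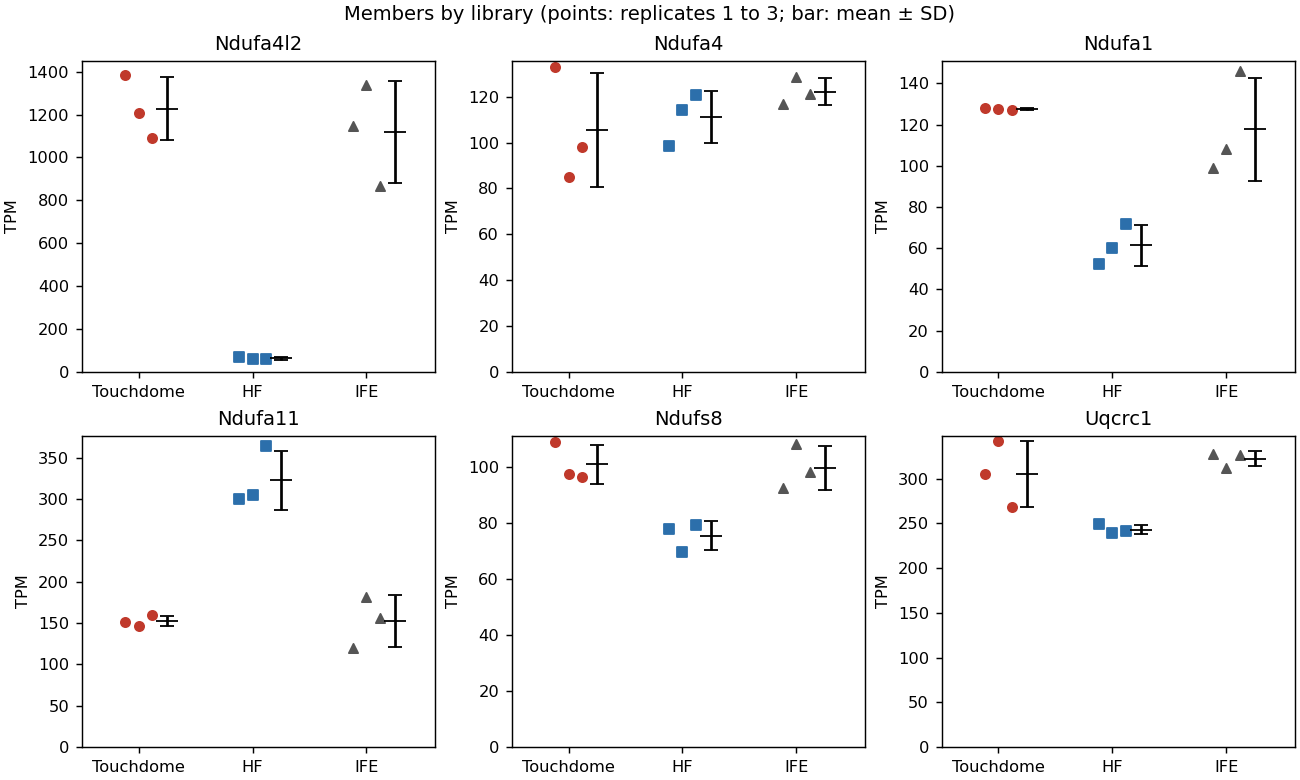
TPM of Ndufa4l2, Ndufa4, Ndufa1, Ndufa11, Ndufs8 and Uqcrc1 in each library of Touchdome, HF and IFE, with the mean ± SD (n = 3). The HF points stand below the others for Ndufa4l2, Ndufa1, Ndufs8 and Uqcrc1, above them for Ndufa11, and among them for Ndufa4.

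Complex II, succinate dehydrogenase, also works in the citric acid cycle and has no subunit from mitochondrial DNA. Its summed level was 363 ± 4.3 TPM in Touchdome, 407 ± 10.9 TPM in HF and 336 ± 15.3 TPM in IFE (SD, n = 3 each), with HF libraries above all others. That order was not seen on CPM. There the median log2 difference from the mean of the 9 libraries was -0.034, 0.004 and 0.087 in HF and -0.17, 0.321 and 0.084 in IFE. Sdha, the flavoprotein subunit, had 95.8, 151 and 130.4 TPM in Touchdome, 172, 168 and 133 TPM in HF and 125, 78.4 and 112 TPM in IFE libraries. Sdhb, the iron-sulphur subunit, had 68.7, 70.8 and 80.9 TPM in Touchdome, 87.6, 95.0 and 94.5 TPM in HF and 63.3, 85.1 and 67.6 TPM in IFE libraries. Both catalytic subunits had their highest mean in HF, with overlap between Touchdome and HF for Sdha. No complex II gene passed the test. The smallest adjusted p in Touchdome over HF was 0.109, for Sdha (log2 fold change -0.27 ± 0.11 SE, edgeR). The membrane anchors Sdhc and Sdhd had log2 fold changes of -0.33 and -0.22 in HF over IFE (adjusted p = 0.111 and 0.333, edgeR), opposite in sign to 0.22 for Sdha and 0.13 for Sdhb.

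In complex III, Uqcrc1 encodes a core protein of the matrix side. It had 305, 342 and 268 TPM in Touchdome, 249, 239 and 241 TPM in HF and 328, 312 and 327 TPM in IFE libraries. The HF libraries were close together and below all others. The log2 fold change was 0.39 ± 0.11 (SE) in Touchdome over HF (adjusted p = 0.0237, edgeR) and -0.67 ± 0.12 in HF over IFE (adjusted p = 0.000608). The first call was lost without each of Touchdome replicates 1 and 2 and HF replicates 1 and 2 in turn, at adjusted p = 0.0612 to 0.0979 (edgeR), and the second held in all 17 alternatives. Uqcrfs1, the Rieske iron-sulphur protein, had 94.2, 72.5 and 75.5 TPM in Touchdome, 73.8, 82.9 and 69.9 TPM in HF and 89.4, 91.6 and 81.7 TPM in IFE libraries. It was lower in HF than in IFE by 0.44 on the log2 scale (adjusted p = 0.0262, edgeR), and not without IFE replicate 2 (adjusted p = 0.0723). Cyc1, the cytochrome c1 subunit, and Uqcrc2, the other core protein, had log2 fold changes of -0.01 and -0.06 in HF over IFE.

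In complex IV, cytochrome c oxidase, Ndufa4l2 had by far the largest difference from HF. Ndufa4l2 is a paralogue of Ndufa4 that is known as a target of the hypoxia-inducible factor HIF-1 and as a restraint on oxygen use in hypoxic cells. It had 1383, 1207 and 1090.4 TPM in the Touchdome libraries, 69.5, 60.8 and 58.9 TPM in the HF libraries and 1148, 1339.5 and 867 TPM in the IFE libraries. The HF values were far below the rest, and the Touchdome and IFE values overlapped. It was 16.4-fold higher in Touchdome than in HF (log2 fold change 4.04 ± 0.22 SE, adjusted p = 1.87e-07, edgeR) and 16.7-fold lower in HF than in IFE (log2 fold change -4.06 ± 0.22, adjusted p = 1.11e-07). In Touchdome over IFE the log2 fold change was -0.03 ± 0.19 (adjusted p = 0.986, edgeR). The gene overlaps Shmt2 on the opposite strand, whose log2 fold change was 0.34 in Touchdome over HF and -0.34 in HF over IFE (adjusted p = 0.0209 and 0.0166, edgeR), and its part in the counts of Ndufa4l2 was not tested.

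Ndufa4, the usual partner gene, had 133, 85.2 and 98.2 TPM in Touchdome, 98.7, 114 and 121 TPM in HF and 117, 129 and 121 TPM in IFE libraries. The Touchdome and HF libraries overlapped, and no comparison passed the test. The ratio of Ndufa4l2 to Ndufa4 was therefore 10.4, 14.2 and 11.1 in Touchdome, 0.704, 0.532 and 0.487 in HF and 9.82, 10.4 and 7.16 in IFE libraries. Ndufa4 was the more abundant of the pair in HF alone. Ndufa4l2 took 24.4% to 27.8% of the complex IV TPM in Touchdome, 1.8% to 2.2% in HF and 19.8% to 27.3% in IFE libraries.

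The widely expressed complex IV subunit genes that passed the test were all lower in HF than in IFE, by small margins. Cox6a1 had 533, 512 and 489.9 TPM in Touchdome, 432, 394 and 377 TPM in HF and 435, 599 and 476 TPM in IFE libraries. Cox5a had 173, 135 and 149.6 TPM in Touchdome, 127, 118 and 111 TPM in HF and 133, 159.9 and 153 TPM in IFE libraries. Both were lowest in the HF libraries, with no overlap in either comparison. In HF over IFE the log2 fold change was -0.58 ± 0.15 (SE) for Cox6a1 and -0.54 ± 0.14 for Cox5a (adjusted p = 0.00906 and 0.00902, edgeR). In Touchdome over HF it was 0.43 ± 0.15 and 0.44 ± 0.14, with adjusted p = 0.0499 and 0.0355 (edgeR), and both of these calls were lost in most fits that left out a library. Cox7c was higher in Touchdome than in HF by 0.43 (adjusted p = 0.0344, edgeR) and lower in HF than in IFE by 0.43 on the log2 scale (adjusted p = 0.0276). The Touchdome over HF call for Cox7c was lost in 6 of the 9 fits without 1 library and on both TPM scales. Cox7a2, Cox5b, Cox6b1 and Cox4i1 were lower in HF than in IFE, by 0.60, 0.51, 0.49 and 0.35 on the log2 scale (adjusted p = 0.0245, 0.0148, 0.0172 and 0.0419, edgeR). Of these, Cox7a2, Cox6b1 and Cox4i1, and with them Cox7c, lost the call without IFE replicate 2. Cox8a and the supercomplex factor Cox7a2l had log2 fold changes of -0.03 and -0.29 in HF over IFE and no call.

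Tissue forms of complex IV subunits were at or near 0. Cox6a2, Cox7b2, Cox8b and Cox8c were listed at 0 in every library. Cox4i2, the lung and hypoxia form of Cox4, reached 0.88 TPM at most, and Cox7a1, the heart and muscle form, 0.95 TPM. With the second Atp5o identifier these are the 7 rows that were not tested. Cox6b2, best known from testis, was the exception, with 11.1, 19.0 and 14.8 TPM in Touchdome, 18.8, 19.6 and 19.6 TPM in HF and 8.93, 8.78 and 7.27 TPM in IFE libraries. Its HF libraries lay above all IFE libraries. In edgeR the log2 fold change in HF over IFE was 0.70 ± 0.40 (SE, adjusted p = 0.198), while limma on log2(TPM + 1) gave 1.13 (adjusted p = 0.00169). Its ratio to Cox6b1 stayed small, at 0.044 to 0.083 in Touchdome, 0.084 to 0.101 in HF and 0.030 to 0.040 in IFE libraries.

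Complex V, ATP synthase, summed to 5384 ± 171 TPM in Touchdome, 5090 ± 24.5 TPM in HF and 5145 ± 292 TPM in IFE (SD, n = 3 each). Atp5b had 1172, 1307 and 1509 TPM in Touchdome, 1410.3, 1323 and 1267 TPM in HF and 1238, 1056 and 1306 TPM in IFE libraries. The groups overlapped, and the log2 fold changes were 0.09 in Touchdome over HF and -0.15 in HF over IFE, with no call. Atp5a1, the α subunit, had 495 to 553 TPM in Touchdome, 535 to 559 TPM in HF and 498 to 551 TPM in IFE libraries. Lower in HF than in IFE were Atp5l, a membrane subunit that supports dimers of the enzyme, Atp5c1, the central shaft, and Atp5g1, a gene for the ring that carries protons. Their log2 fold changes were -0.53 ± 0.14, -0.46 ± 0.13 and -0.37 ± 0.13 (SE; adjusted p = 0.0121, 0.0131 and 0.0468, edgeR). All 3 calls were lost on both TPM scales. The Atp5l call was also lost without HF replicate 2 (adjusted p = 0.0568, edgeR), the Atp5c1 call without HF replicate 1 (adjusted p = 0.0681), and the Atp5g1 call in 11 of the 17 alternatives. Atp5g2 and Atp5g3, which encode the same mature ring protein as Atp5g1, had log2 fold changes of -0.39 and -0.22 and did not pass the test. In Touchdome over HF 0 complex V genes were called, with 1 higher and 0 lower at an unadjusted p under 0.05 in edgeR and 0 in DESeq2 and in limma on TPM.

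**Figure D5:**
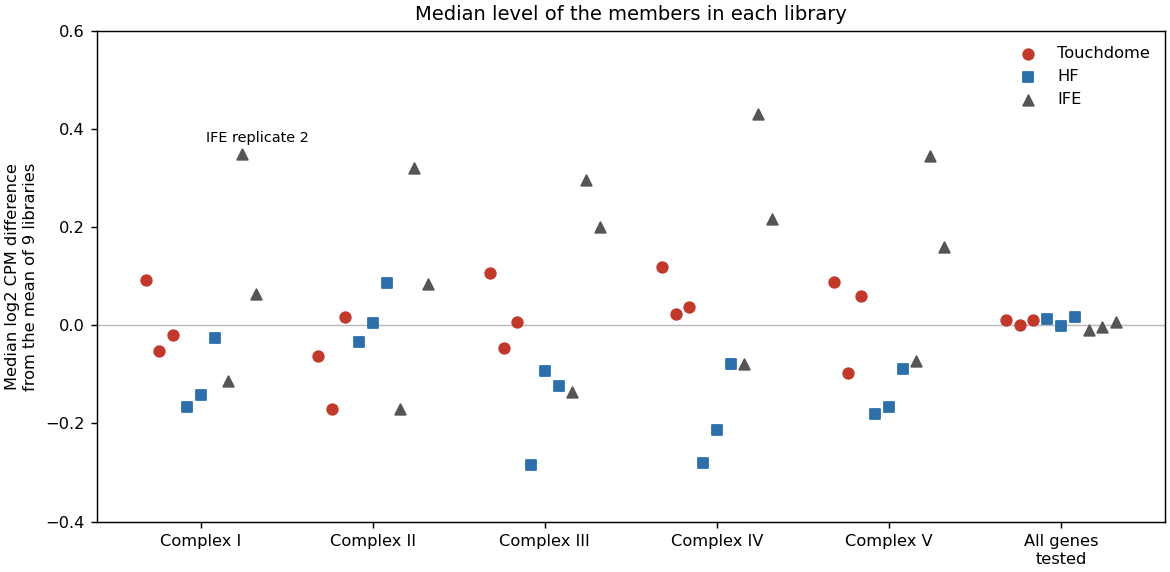
Median over the tested subunit genes of each complex of the log2 CPM difference from the mean of the 9 libraries, 1 point per library, with all genes tested at the right. The points of IFE replicate 2 are the highest of every complex, at 0.30 to 0.43, while all genes tested sit near 0 in every library.

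The median over the 79 genes of the log2 CPM difference from the mean of the 9 libraries was 0.09, -0.05 and 0.01 in the Touchdome libraries, -0.22, -0.15 and -0.05 in the HF libraries and -0.10, 0.35 and 0.15 in the IFE libraries. IFE replicate 1 thus lay inside the HF range and IFE replicate 2 above every other library. Without IFE replicate 2 the median log2 fold change in HF over IFE was -0.17, and 10 of the 19 calls held: Ndufa4l2, Ndufa1, Ndufa11, Ndufs8, Uqcrc1, Cox5a, Cox5b, Cox6a1, Atp5c1 and Atp5l. The calls for Ndufa4l2, Ndufa1 and Ndufa11 held in all 17 alternatives in both comparisons with HF.

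The promoters of 4 of the called genes are shown, since 3 of them hold the binding motif of NRF1, a transcription factor known to act on many respiratory genes, and the fourth, Ndufa1, does not. Each is 250 bases before and 50 after the start in RefSeq (GRCm38.p6), 5′ to 3′, with the motif GCGCATGCGC in capitals. They are Ndufa11 at chr17:56717512-56717811 on the plus strand, Cox6a1 at chr5:115348909-115349208 on the minus strand, Uqcrc1 at chr9:108936398-108936697 on the plus strand and Ndufa1 at chrX:37191189-37191488 on the minus strand.
Ndufa11: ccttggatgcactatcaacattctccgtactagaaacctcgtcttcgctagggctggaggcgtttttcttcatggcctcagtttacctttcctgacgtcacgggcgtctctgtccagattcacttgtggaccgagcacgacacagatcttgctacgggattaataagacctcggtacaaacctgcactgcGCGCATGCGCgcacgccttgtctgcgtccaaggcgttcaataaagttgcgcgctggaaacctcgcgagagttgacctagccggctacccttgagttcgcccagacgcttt
Cox6a1: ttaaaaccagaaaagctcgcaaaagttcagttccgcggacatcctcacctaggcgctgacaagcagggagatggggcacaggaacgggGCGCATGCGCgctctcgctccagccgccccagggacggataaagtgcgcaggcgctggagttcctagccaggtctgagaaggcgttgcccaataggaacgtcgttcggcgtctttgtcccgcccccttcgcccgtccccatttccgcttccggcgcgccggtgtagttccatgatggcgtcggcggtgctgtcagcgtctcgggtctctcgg
Uqcrc1: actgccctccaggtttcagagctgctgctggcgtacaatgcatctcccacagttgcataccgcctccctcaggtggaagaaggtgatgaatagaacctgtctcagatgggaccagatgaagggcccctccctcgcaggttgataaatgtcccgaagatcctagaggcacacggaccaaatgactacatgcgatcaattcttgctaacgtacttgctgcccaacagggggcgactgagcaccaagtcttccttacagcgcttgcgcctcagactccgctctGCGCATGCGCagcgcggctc
Ndufa1: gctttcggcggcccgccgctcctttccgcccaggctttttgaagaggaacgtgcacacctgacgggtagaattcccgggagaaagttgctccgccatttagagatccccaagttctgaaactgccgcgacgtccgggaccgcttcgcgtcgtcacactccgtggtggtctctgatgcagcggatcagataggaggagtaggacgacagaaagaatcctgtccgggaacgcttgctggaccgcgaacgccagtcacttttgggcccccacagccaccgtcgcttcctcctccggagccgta

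RefSeq promoters were matched for 66 of the 85 symbols, with 71 promoter entries. The NRF1 motif GCGCATGCGC, the half-site GCGCA followed by its reverse complement, reads the same on both strands. It occurred in 5 of the 71 entries (7.0%) and in 0.97% of all 32851 promoters of this length. The genes with it were Atp5g2, Atp5k, Cox6a1, Ndufa11 and Uqcrc1. In HF over IFE, Cox6a1 and Uqcrc1 were lower, Ndufa11 was higher, and Atp5g2 and Atp5k, at -0.39 and -0.38 on the log2 scale, were not called. The ETS motif CCGGAAG, on either strand, occurred in 16 entries (22.5%) and in 8.86% of all promoters, and the YY1 motif AAGATGGCG in 7 entries (9.9%) and in 1.4%. These are matches of letters and not sites of binding.

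Other genes of mitochondrial energy metabolism were set beside the subunits, from lists chosen with earlier results known. The 13 subunits from mitochondrial DNA gave 0 calls in all comparisons in edgeR, DESeq2 and limma on TPM, and 0 at an unadjusted p under 0.05. Their summed level was 56498 ± 8136 TPM in Touchdome, 60102 ± 4644 TPM in HF and 55215 ± 2673 TPM in IFE (SD, n = 3 each). The edgeR log2 fold changes went the other way, with all 13 below 0 in HF over IFE (median -0.19). In Touchdome over HF 10 were above 0 and 3 below (median 0.19). Single genes varied widely within a group, with mt-Co3 at 0.06 to 584 TPM and mt-Co2 at 221 to 1235 TPM in the Touchdome libraries, and the cause was not tested. In HF over IFE, where 16% of all genes tested were lower and 17.1% higher, 1 of 46 assembly factors was lower (2.17%), Uqcc2 of complex III (-0.88 ± 0.16 SE, adjusted p = 0.000814, edgeR). Likewise 1 of 15 biogenesis regulators was lower (6.67%), Esrra (-0.41 ± 0.14, adjusted p = 0.0438), while Nrf1 and Gabpa showed no call.

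Of 20 genes of the citric acid cycle and pyruvate entry, 1 was lower in HF than in IFE (5%), Cs, which encodes citrate synthase. It had 188, 197 and 188 TPM in Touchdome, 136, 151 and 139 TPM in HF and 209, 185 and 197 TPM in IFE libraries. The log2 fold change was 0.50 ± 0.10 (SE) in Touchdome over HF (adjusted p = 0.00265, edgeR) and -0.69 ± 0.10 in HF over IFE (adjusted p = 0.000179). Pdha1, a pyruvate dehydrogenase subunit, was lower in Touchdome than in HF by 0.37 on the log2 scale (adjusted p = 0.0179, edgeR). Of 19 electron carrier and exchange genes, Etfa, Vdac1, Vdac3 and Ucp2 were lower (21.1%) and Coq6 was higher (5.26%) in HF than in IFE. Of 20 genes of the mitochondrial ribosome, 4 were lower (20%), namely Mrpl4, Mrpl20, Mrps12 and Mrps16. Both lower shares are near the 16% of all genes tested. None of these lists held a call in Touchdome over IFE by edgeR, DESeq2 or limma on TPM, and at an unadjusted p under 0.05 edgeR gave 2 assembly factors, 1 citric acid cycle gene and 1 carrier gene lower.

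A list of 9 tested hypoxia-responsive genes, which shares no gene with the subunits, gave 5 higher and 0 lower in Touchdome over HF and 0 higher and 5 lower in HF over IFE, from comparisons that share the HF libraries. Each is 55.6% of the list, beside 11.8% of all genes tested called higher in Touchdome over HF and 16% called lower in HF over IFE. The list was chosen with earlier results of these data known, so these shares are a description and not a test. Slc2a1, the glucose carrier GLUT1, had 261, 218 and 220.1 TPM in Touchdome, 154, 123 and 135 TPM in HF and 248, 189 and 207 TPM in IFE libraries. Bnip3, a mitophagy receptor, had 94.4, 93.6 and 51.5 TPM in Touchdome, 33.1, 35.6 and 34.8 TPM in HF and 77.7, 83.6 and 56.3 TPM in IFE libraries. For both genes the HF libraries lay below all others, as they did for Ndufa4l2. Over the list, 8 genes were below 0 and 1 above in HF over IFE, and a link between the list and Ndufa4l2 was not tested. In Touchdome over IFE the list gave 0 calls in edgeR, DESeq2 and limma on TPM, with 2 higher and 0 lower at an unadjusted p under 0.05 in edgeR. The log2 fold change in HF over IFE was -0.86 ± 0.13 (SE) for Slc2a1 and -1.52 ± 0.23 for Bnip3 (adjusted p = 0.000243 and 0.00036, edgeR). Some markers of other cells moved with the same groups, since all 5 sebocyte markers were higher and 3 of 5 basal keratinocyte markers lower in HF than in IFE (edgeR). The 5 suprabasal markers summed to 6191 to 8452 TPM in Touchdome, 2036 to 2313 TPM in HF and 3444 to 4962 TPM in IFE libraries. In HF over IFE 3 of the 5 were lower (Krt1, Krt10 and Krtdap), while Sbsn was higher (log2 fold change 1.36, adjusted p = 0.000658, edgeR). The 5 fibroblast markers summed to 7.8 to 24.8 TPM in Touchdome, 20.4 to 31.4 TPM in HF and 0.2 to 1.6 TPM in IFE libraries. The 5 Langerhans cell markers gave 0 calls in edgeR and varied between libraries. They summed to 196 to 435.5 TPM in Touchdome, 90.9 to 591 TPM in HF and 147 to 299 TPM in IFE libraries. The part of all these markers in the subunit results was not tested.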

How the data were processed

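RNA was measured in 9 libraries (3 groups of 3), grouped by their titles. Per the labels' protocols, 50 ng of total RNA was poly(A)-selected and read as 150 nt pairs. The submitters' processing notes name the build mm39 and the tools RSEM 1.3.3, STAR 2.7.9a and DESeq2 1.38.2, with no strand setting or annotation release. The authors deposited expected counts, estimated per gene and unscaled, of which 92.5% to 94.6% were whole, so near-identical genes and pseudogenes share reads. The TPM values deposited by the authors are scaled by length and carry no depth. A count of 0 allows up to 0.114 to 0.316 CPM (3 counts, counting error only).

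Symbols came from GENCODE M21, whose build differs from mm39, and 52081 of 55357 rows had one. Older symbols are kept. Expected counts were rounded, filtered with filterByExpr (minimum count 10, minimum total 15; 15046 genes) and fitted with edgeR 4.0.16 in R 4.3.3 (robust quasi-likelihood), with TMM scaling, the 9 libraries in 1 fit and Benjamini-Hochberg adjustment over all genes tested. limma 3.58.1 was run on log2(TPM + 1) and log2(TPM + 0.1), and DESeq2 1.42.0, other scalings, no filter, 2-group fits, a replicate block and fits without each library were the other alternatives. CPM values use the TMM-scaled library sizes.

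The members, lists and tests were chosen with earlier results of these data known. All subunit genes could be named. Values in full were given to the highest gene of a complex, to called genes with the smallest p, to tissue forms and to complex II, and genes outside this rule, such as Ndufv1, Vmac and Shmt2, were chosen after their values were seen. The Touchdome and IFE libraries of the same replicate number deviated together from their group means (r = 0.15, 0.17 and 0.20). The numbers may thus pair these 2 groups. The main test did not use this pairing, and only the replicate block among the alternatives did. For HF the same-number correlations were weaker, with Touchdome (r = 0.07, -0.03 and 0.03) and with IFE (r = 0.06, -0.01 and 0.05). Such values cannot tell whether HF is paired with these groups. Of the 19 called genes, 9 overlap another gene in GENCODE M21. Besides Vmac and Shmt2, values were taken for Emc8, which overlaps Cox4i1, and Rbm10, which overlaps Ndufb11. Their log2 fold changes in HF over IFE were 0.07 and -0.12 (adjusted p = 0.75 and 0.57, edgeR), with no call.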

Additional observations from a re-analysis of the deposited data

How the results depend on the processing

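Each result was recomputed under 17 alternatives, 9 of which left out 1 library. In Touchdome over IFE the count of called subunit genes was 0 in all of them. The median there was 0.059 on log2(TPM + 1) and 0.060 on log2(TPM + 0.1), scales that move the median of all genes to 0.133 and 0.151, and -0.218 to 0.008 when a library was left out. In Touchdome over HF the higher count was 3 on both TPM scales and 2 to 10 without a library. In HF over IFE it was 3 higher and 4 lower on both TPM scales, with a median of -0.077 on both, and without a library it was 7 to 39 lower with a median of -0.439 to -0.172. The lower share was under that of all genes tested on the TPM scales (5.06% beside 8.04% and 8.1%), without IFE replicate 2 (11.4% beside 14.7%) and without HF replicate 1 (8.86% beside 12.2%), and above it in the other fits. The cause was not tested. With the replicate block, 0 subunit genes were called in Touchdome over IFE, where all genes gave 282 higher and 67 lower, beside 184 and 12 without it. The block gave 8 higher and 1 lower in Touchdome over HF and 1 higher and 16 lower in HF over IFE. Whether the numbers pair HF with the other groups is not known. Of the 9 libraries, 5 correlated best with their own number in both other groups.

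Signs turned only where no call had been made. In Touchdome over IFE, Ndufa1 was 0.136 and 0.138 on the TPM scales and -0.224 to 0.151 when a library was left out, above 0 without IFE replicate 3. Ndufa11 was 0.019 and 0.020 on the TPM scales and -0.378 to 0.038 when a library was left out, above 0 without IFE replicate 2. Ndufa4l2 was 0.150 on both TPM scales, and -0.176 to 0.101 when a library was left out, with 0.004, 0.071 and 0.101 without Touchdome replicate 2, Touchdome replicate 3 and IFE replicate 2. In Touchdome over HF, Ndufa4 was 0.008 with upper-quartile scaling, and -0.234 to 0.144 when a library was left out, with 0.144 and 0.047 without Touchdome replicates 2 and 3, and 0.004 and 0.066 without HF replicates 2 and 3. Of 204 checks of 12 genes in Touchdome over HF, 36 lost a call and 2 gained one, and of 374 checks of 22 genes in HF over IFE, 84 lost a call and 3 gained one. The calls for Ndufa4l2, Ndufa1 and Ndufa11 against HF, and for Ndufs8 and Uqcrc1 in HF over IFE, held in every alternative run.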

Other observations

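Genes next to the subunits in function or name also gave values. Atpif1, the inhibitor of ATP synthase, which GENCODE M21 lists under this older symbol and the rule therefore leaves out, had 555, 488 and 516 TPM in Touchdome, 317, 327 and 362 TPM in HF and 489, 588 and 543 TPM in IFE libraries. The HF libraries lay below all others. The log2 fold change was 0.70 ± 0.13 (SE) in Touchdome over HF (adjusted p = 0.00195, edgeR) and -0.91 ± 0.13 in HF over IFE (adjusted p = 0.0002). Ndufb4c, a processed pseudogene, had 61.4 to 98.6 TPM in Touchdome, 82.7 to 96.8 TPM in HF and 87.1 to 115 TPM in IFE libraries. On TPM that was 1.55 to 3.53 times, 2.39 to 3.59 times and 2.05 to 2.84 times Ndufb4 in Touchdome, HF and IFE. On CPM, which is not scaled by length, Ndufb4c was the lower of the pair. Its mean CPM was 8.12, 8.41 and 11.4, beside 15.6, 13.6 and 21.5 for Ndufb4, in the same order. The division of reads between the pair is uncertain. Ndufb1-ps, annotated as non-coding, had 22.9 to 35.1 TPM in Touchdome, 25.8 to 31.9 TPM in HF and 25.6 to 38.0 TPM in IFE libraries. The other 10 of 12 non-coding rows with matching symbols reached 1.12 TPM at most.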
